A study of Mus musculus with 3 samples.

Results

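The proteasome genes of cultured mouse dendritic cells were described on 3 Affymetrix whole-transcript arrays. A gene was a member where its symbol begins with Psm, then a letter from a to g, then a digit, and where a probe set of its own names it alone. Of 19938 genes measured this way, 50 matched. Of these, 48 encode subunits, activators, an inhibitor or dedicated assembly chaperones of the proteasome. The other 2 match by symbol only. Psmc3ip encodes a meiotic recombination factor, and Psme3ip1 encodes a protein that binds the activator Psme3.

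The cells were bone marrow-derived dendritic cells (BMDC) of the inbred mouse strain C57BL/6J, plated at 2000000 cells per well and grown for 9 days with murine GM-CSF and murine IL-4, each at 20 ng/ml. All 3 samples carry this description, so they form 1 group with no untreated, stimulated or mutant counterpart. The labels do not say whether they came from separate mice or cultures, and each spread given here is a spread between these samples that may be technical. Values are deposited log2 expression, given in the order replicates 1, 2 and 3. With 1 group there was nothing to test, and precision is limited by there being only 3 arrays.

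The proteasome is the cell's main machine for breaking down proteins tagged with ubiquitin. Its 20S core is a barrel of alpha and beta rings in which 3 kinds of beta subunit cut the protein chain. The 19S regulator at its ends, a base with a ring of ATPases and a lid, recognises, unfolds and feeds in the substrate. The assembled 26S form makes most of the peptides shown on MHC class I. Under interferon gamma, and constitutively in many immune cells, the catalytic subunits Psmb6, Psmb7 and Psmb5 are replaced by Psmb9, Psmb10 and Psmb8, which gives the immunoproteasome. The PA28 activator, built from Psme1 and Psme2, can cap the same core in place of 19S.

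Nearly all proteasome genes were detected. A gene counted as above background where its value exceeded, on each array, a limit of 5.54, 5.54 and 5.55, the 95th percentile of 1210 probe sets for olfactory and vomeronasal receptors. Of the 50 members, 47 passed, against 60.5% of all genes. At the 99th percentile 46 passed, against 46.2% of all genes. Among the 48 proteasome genes, 46 passed the first limit (95.8%). The 2 that did not are the forms tied to other tissues. Psma8, the alpha subunit of male germ cells, lay at 4.93, 5.21 and 5.20, below the limit on every array. Psmb11, the catalytic subunit of thymus cortical epithelium, had 5.22 on each array. Psmc3ip had 5.36 on each array and was also below. The detected gene nearest to the limit was Psmg3, a chaperone of 20S assembly, at 5.80 on each array, and it fell below at the 99th percentile. Probe sets differ in how strongly they bind, so levels of different genes were not compared and the call is only a rough statement of detection.

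**Figure D1:**
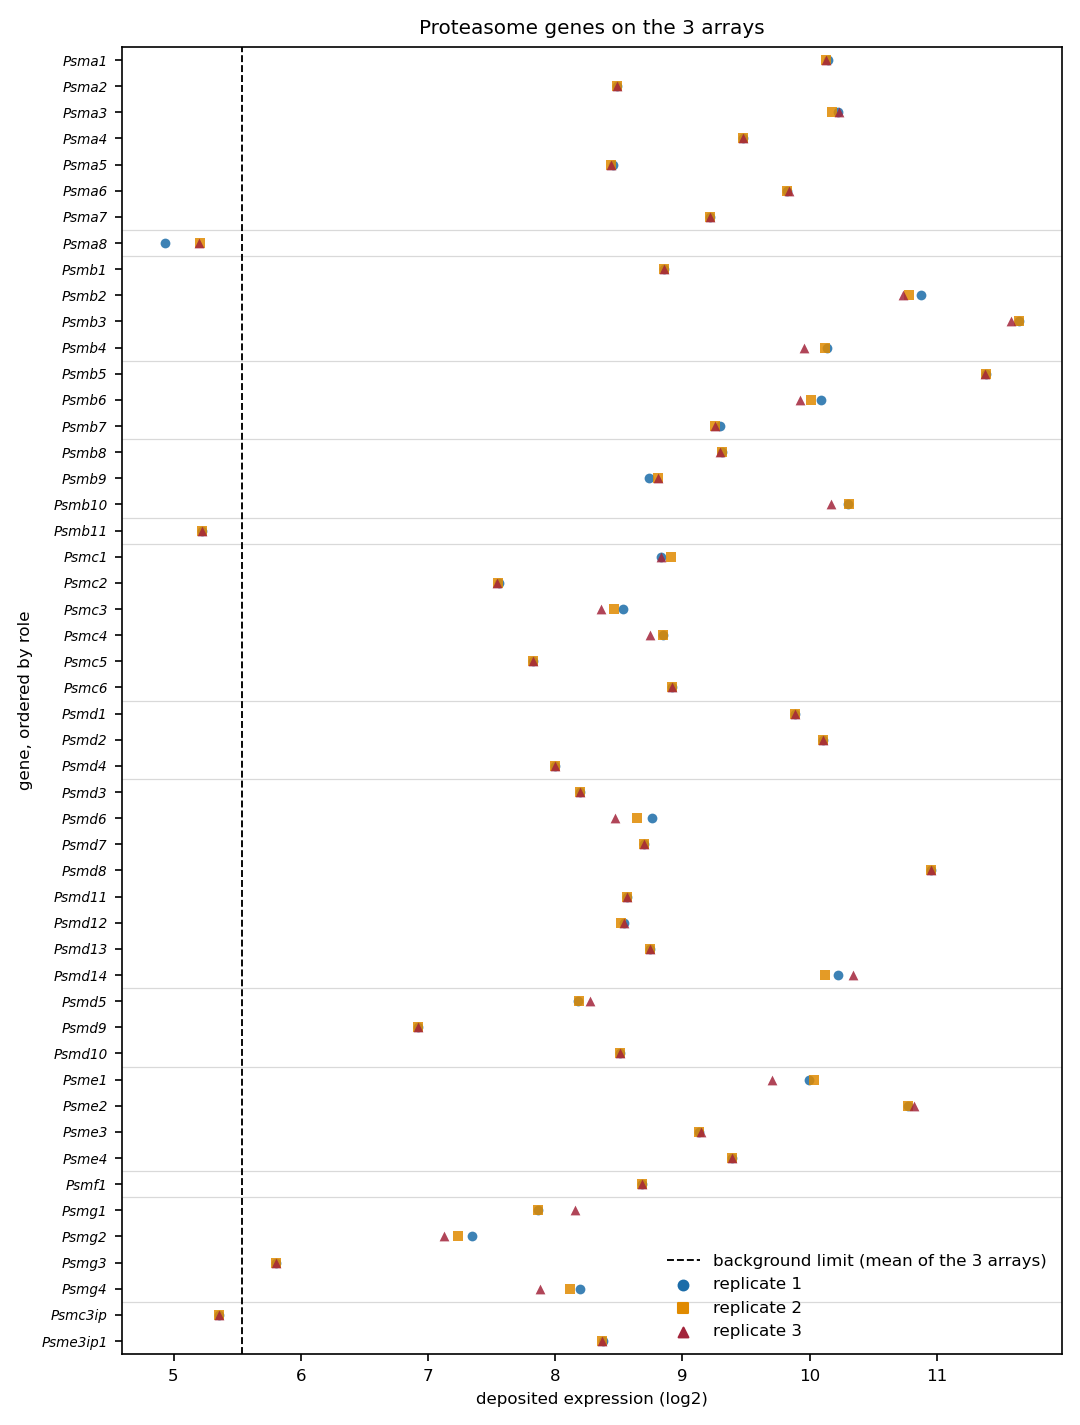
Deposited log2 expression (horizontal axis) of the 50 members (vertical axis, ordered by role), with 1 point per replicate and a dashed line at the mean background limit. Psma8, Psmb11 and Psmc3ip lie left of the line, and the 3 points of most other genes overlap; positions of different genes are not comparable in amount.

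The label of the cells was checked against markers. Of 10 dendritic cell markers 9 were detected, among them Itgax at 11.91, 11.92 and 11.91, and Flt3 was not. Of 5 macrophage markers 5 were detected, of 7 T cell markers 6 and of 7 NK cell markers 5. All 9 measured dividing-cell markers were detected. Detected on every array were 2 of 4 B cell markers, 3 of 7 of neutrophils and 3 of 5 of mast cells and basophils. So were 1 of 2 erythroid and 2 of 6 stromal markers. Of all genes 60.5% were detected, so a count near that share says little about a cell type. Others were above the limit on some arrays only. The stromal genes Dcn (8.12, 5.36 and 5.41), Bgn (8.19, 5.33 and 5.31) and Lox (7.58, 4.47 and 4.63) were above it in replicate 1 alone, and the summed level of the 6 stromal markers was 10.17, 8.30 and 8.40. The neutrophil genes Lcn2, Retnlg and Ly6g and the mast cell and basophil genes Cpa3 and Mcpt8 were above it in replicates 1 and 2 and below it in replicate 3. The summed levels were 9.51, 9.16 and 8.27 for the 7 neutrophil markers and 9.34, 9.57 and 8.18 for the 5 of mast cells and basophils. The other stromal markers were Sparc (7.64, 5.34 and 5.78), Col1a1 (6.94, 6.69 and 6.76) and Col3a1, identical at 6.10. Of the other neutrophil markers, S100a9 (5.86) and Elane (5.42) were identical. Mpo had 5.63, 5.99 and 5.63, and S100a8 had 5.88, 5.78 and 5.56. In the summed levels replicate 1 thus stood apart for stromal markers and replicate 3 for those of neutrophils, mast cells and basophils. Single markers did not all follow. The part of these cells in the proteasome values was not tested. In bulk RNA, fewer cells of a type and less RNA per cell cannot be told apart.

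Most proteasome genes had nearly the same value on all arrays. Of the 46 detected, 18 (39.1%) had values identical to the last digit on the 3 arrays, against 46.5% of all detected genes. An SD of 0 there is no measure of precision, since 44.8% of all probe sets in the deposited table share this property. The median span from the lowest to the highest array was 0.015 log2 units over the 46 genes and 0.0096 over all detected genes. Over the genes that were not identical it was 0.073 and 0.087. More than 0.25 log2 units was spanned by 4 of 46 (8.70%), close to the background of 8.49% of detected genes. No proteasome gene spanned more than 0.5 units, against 2.61% of detected genes.

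The 4 genes of wide span were Psmd6, Psme1, Psmg1 and Psmg4. Psmd6, a subunit of the 19S lid, had 8.76, 8.64 and 8.47 (mean 8.63 ± 0.15, SD, n = 3), which is 1.22-fold from lowest to highest. Psme1, the alpha chain of PA28, had 9.99, 10.04 and 9.71 (9.91 ± 0.18, SD, n = 3), or 1.26-fold. Replicate 3 was lowest for both. Psmg4, a chaperone that helps build the alpha ring, had 8.20, 8.11 and 7.88 (8.06 ± 0.16, SD, n = 3), or 1.25-fold, again lowest in replicate 3. Psmg1, a chaperone that works as a pair with Psmg2, went the other way with 7.87, 7.87 and 8.16 (7.96 ± 0.17, SD, n = 3), or 1.22-fold. Replicate 3 was thus the array set apart for Psme1, Psmg4 and Psmg1, while the arrays of Psmd6 were spread more evenly. Without replicate 3, 0 genes spanned more than 0.25 units, and without replicate 1, 2 did.

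Of the 28 detected proteasome genes that were not identical, 14 (50%) were strictly lowest in replicate 3, against 37.8% of such genes over the whole array. Replicate 1 was lowest for 2 (7.14%, background 24.5%) and replicate 2 for 3 (10.7%, background 9.12%). The highest value was in replicate 1 for 13 (46.4%, background 29.1%), in replicate 2 for 3 (10.7%, background 10.1%) and in replicate 3 for 8 (28.6%, background 36.2%). The other genes had ties. Proteasome genes were thus less often lowest in replicate 1 than genes at large in this count, which was not tested. The 2 that were lowest there were Psmb9 and Psmd5.

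**Figure D2:**
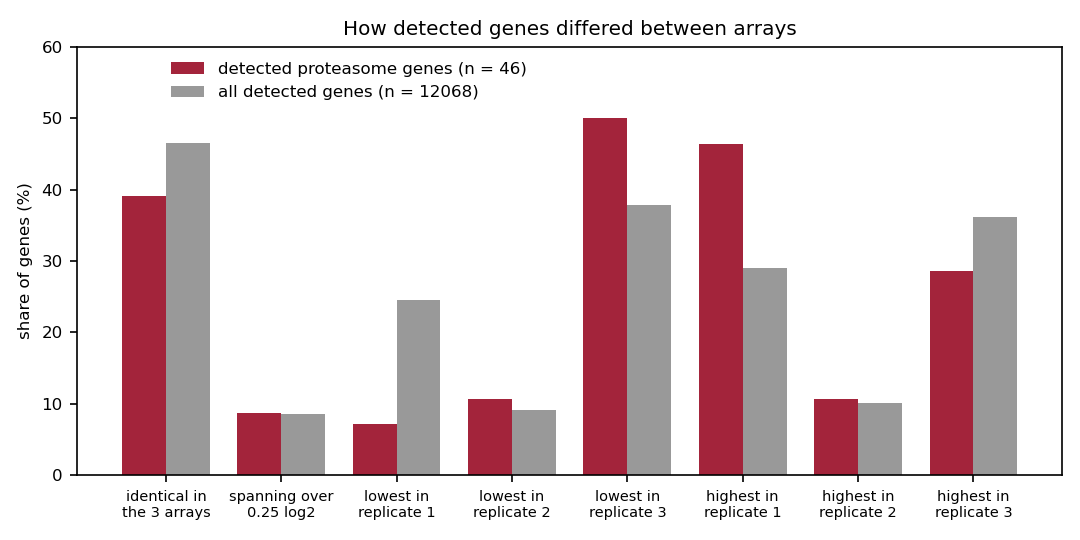
Share of detected genes in percent (vertical axis) for the 46 detected proteasome genes and all 12068 detected genes; the lowest and highest shares are over genes not identical on the arrays. Bars for a span over 0.25 log2 units are alike (8.70% and 8.49%), whereas 7.14% of proteasome genes and 24.5% of all genes were lowest in replicate 1.

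The alpha ring, which forms the outer rings of the 20S barrel and its gate, hardly differed between arrays. All 7 genes were detected. Psma2 (8.49), Psma4 (9.47) and Psma7 (9.22) were identical on the arrays. Psma1 had 10.14, 10.13 and 10.13, Psma5 had 8.46, 8.44 and 8.44, and Psma6 had 9.82, 9.82 and 9.84. The widest span, 0.048 units, was that of Psma3, with 10.23, 10.18 and 10.23. Psma3 has 3 probe sets, and each was lowest in replicate 2, with 10.03, 9.98 and 10.03 on the next and 9.99, 9.95 and 10.01 on the last. The probe sets of Psma5 differed more, since the other one had 8.55, 8.38 and 8.34, a span of 0.22 units against 0.015. RefSeq lists a pseudogene, Psma5-ps, and whether either probe set reads it was not tested.

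The constitutive beta subunits had the widest range of the mean deviation between arrays among the core groups, 0.087 log2 units against 0.051 for the inducible ones, although without replicate 1 the ranges were 0.053 and 0.051. Their median span, 0.062 units, was below the 0.070 of the inducible genes. All 7 were detected, and the 6 that were not identical were all highest in replicate 1 (background 29.1%). Of these, 5 were strictly lowest in replicate 3 (background 37.8%). Psmb6, which cuts after acidic residues, had 10.09, 10.01 and 9.92 (10.01 ± 0.08, SD, n = 3). Psmb7, which cuts after basic residues, had 9.30, 9.25 and 9.25. Psmb5, which cuts after hydrophobic residues and is the target of bortezomib, had 11.39, 11.39 and 11.38, a span of only 0.014 units. Among the structural subunits, which have no active site, Psmb4 had 10.14, 10.12 and 9.96 (10.07 ± 0.10, SD, n = 3). Psmb2 had 10.88, 10.78 and 10.73 (10.80 ± 0.07, SD, n = 3). Psmb3 had 11.65, 11.64 and 11.59, with 11.58, 11.55 and 11.49 on its other probe set. Psmb1, at 8.86, was identical. RefSeq also lists pseudogenes of Psmb5, Psmb6 and Psmb7, so those values are uncertain in so far as the copies share probes.

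The inducible subunits of the immunoproteasome were all detected, and each had its own pattern. Psmb8, the counterpart of Psmb5, had 9.31, 9.31 and 9.30, a span of 0.0095 units. Psmb10, the counterpart of Psmb7, had 10.30, 10.31 and 10.17 (10.26 ± 0.08, SD, n = 3), with replicate 3 lowest. Psmb9, the counterpart of Psmb6, had 8.73, 8.80 and 8.80 (8.78 ± 0.04, SD, n = 3), so that replicate 1 was lowest while the values of replicates 2 and 3 were identical. No inducible subunit spanned more than 0.145 units, or 1.11-fold. Whether inducible or constitutive subunits were more abundant cannot be read from different probe sets.

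Psmb9 and Psmb8 lie in the MHC class II region of chromosome 17, where RefSeq places them in the order Psmb9, Tap1, Psmb8, Tap2. Tap1 and Tap2 encode the transporter that carries proteasome products into the endoplasmic reticulum. Tap1 had 9.84, 9.91 and 9.91, the same order as Psmb9, with spans of 0.068 and 0.070 units and replicate 1 lowest in both. Tap2 was identical at 8.48. The pair of Psmb9 and Tap1 was singled out after its values were seen. They are transcribed in opposite directions from starts separated by 225 bases (GRCm38.p6, RefSeq), and this shared interval is shown because both genes read from it. Capitals mark a CCAAT box (CCAAT) and a GC box (GGGCGG, here on the strand opposite to the one printed):

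Psmb9 and Tap1, chr17:34187331-34187555, plus strand: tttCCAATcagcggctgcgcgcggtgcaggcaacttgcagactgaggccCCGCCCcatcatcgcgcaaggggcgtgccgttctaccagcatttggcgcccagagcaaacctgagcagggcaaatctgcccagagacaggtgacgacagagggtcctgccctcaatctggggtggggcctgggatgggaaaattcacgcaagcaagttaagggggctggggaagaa

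The genes that carry the interferon gamma signal to these subunits were detected too, and they did not follow one pattern. Of 9 listed, 8 were measured and 8 detected. Ifng, the cytokine itself, had 8.10, 7.59 and 7.08 (7.59 ± 0.51, SD, n = 3), a 2.03-fold difference with replicate 3 lowest. Its receptor chains Ifngr1 (9.76, 9.69 and 9.60) and Ifngr2 (11.62, 11.57 and 11.51) were lowest there as well. The transcription factor genes Irf1 (10.33, 10.52 and 10.61) and Irf8 (10.06, 10.17 and 10.33) were lowest in replicate 1. Nlrc5, the transactivator of MHC class I genes (9.41), and Jak1 (10.69) were identical, and Jak2 had 9.86, 9.85 and 9.85. Of the 6 of these genes that were not identical, 2, Irf1 and Irf8, were lowest in replicate 1, as were Psmb9 and Tap1. The background was 24.5% of detected genes that were not identical. The likeness was picked after the values were seen, and a link was not tested. Psmb8 spanned 0.0095 units on the arrays on which Ifng spanned 1.02, and a link between them was not tested. The summed levels of the T cell and NK cell lists had the same order of arrays as Ifng. The detected NK list genes were Gzma, Gzmb, Il2rb, Eomes and Klrb1c, which need not come from NK cells. Klrb1c fell below the limit at the 99th percentile. The summed linear level of the 7 T cell markers was 10.996, 10.60 and 9.99 on the log2 scale, and that of the 7 NK cell markers 12.34, 11.98 and 11.16. The NK markers Ncr1 and Klrd1 lay below background on every array. The T cell marker Cd2 (5.62, 5.31 and 5.09) was above the limit in replicate 1 alone. The part of these cells in the Ifng values was not tested.

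The activators contrasted within one complex. Psme1 and Psme2 pair in the PA28 ring, and RefSeq places their genes on chromosome 14 with Emc9 between them. Psme1 was lowest in replicate 3, as given above, whereas Psme2 had 10.77, 10.77 and 10.82 (10.79 ± 0.03, SD, n = 3) and was highest there. Another probe set, which names Psme2 together with its copy Psme2b and was not used for either gene, had 9.77 on each array. Psme3, the nuclear PA28 gamma, had 9.13, 9.13 and 9.15. Psme4 (PA200), linked to histone breakdown, had 9.39 and the inhibitor Psmf1 8.68, both identical on the arrays. Psme3ip1, the partner of Psme3, had 8.38, 8.36 and 8.36.

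**Figure D3:**
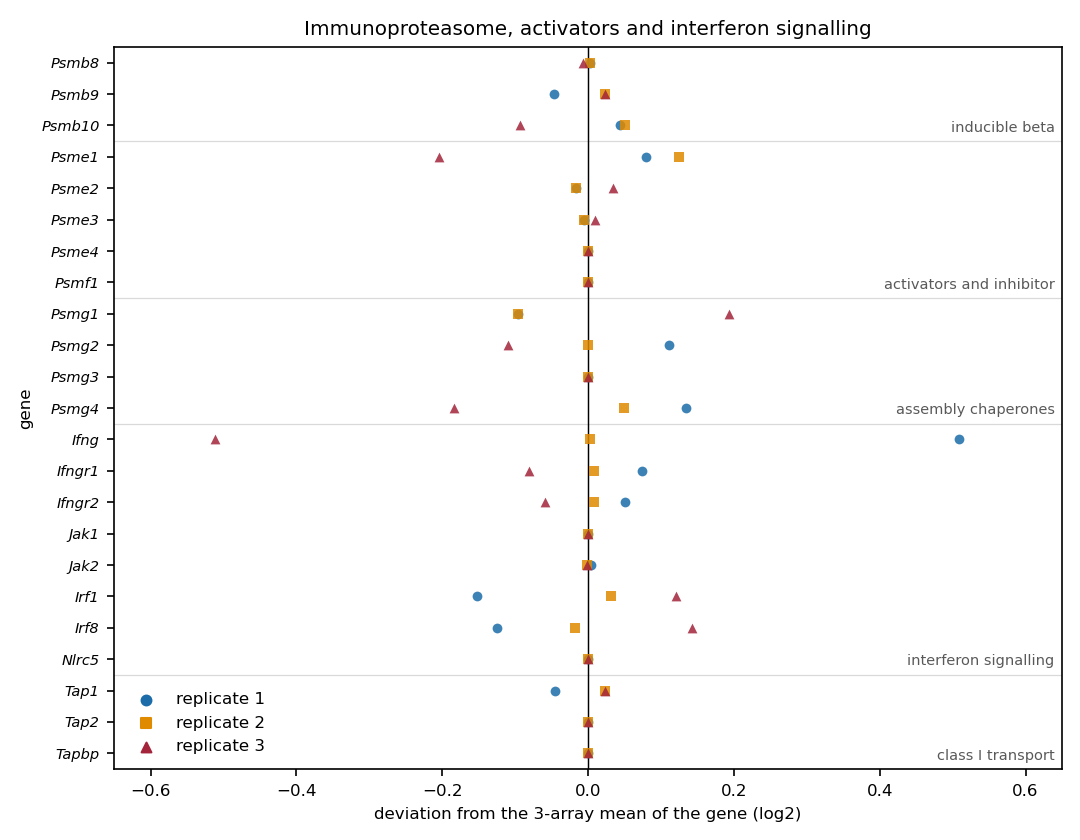
Deviation of each replicate from the 3-array mean of the gene in log2 units (horizontal axis) for inducible subunits, activators and inhibitor, 20S assembly chaperones, interferon signalling and class I transport genes. Psme1 and Psme2 lie on opposite sides in replicate 3, and Psmb9 and Tap1 share a low replicate 1.

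Of the 19S regulator, the 17 genes matched by symbol were all detected. The symbol rule leaves out the lid subunit Sem1, given below, and Adrm1, which had no probe set of its own. Among the 6 ATPases of the regulator, the motors that unfold the substrate, Psmc3 spanned most with 8.53, 8.46 and 8.36 (8.45 ± 0.09, SD, n = 3). Psmc4 had 8.85, 8.85 and 8.75, also lowest in replicate 3. Psmc1 had 8.84, 8.91 and 8.84, whereas its other probe set was identical at 8.54. Psmc2 (7.56, 7.55 and 7.55) and Psmc6 (8.92 on each array after rounding) varied little, and Psmc5 was identical at 7.83. The ATPases thus ranged from a span of 0.17 units in Psmc3 to none in Psmc5.

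The probe sets used for the other base subunits had identical deposited values on the arrays. Psmd1 (9.89) and Psmd2 (10.11) are the large scaffolds of the base, Psmd4 (7.998) is a ubiquitin receptor, and each was identical on the 3 arrays. The second probe set of Psmd2 was not, with 10.08, 10.02 and 10.07. In the lid, Psmd3 (8.20), Psmd7 (8.70), Psmd8 (10.95), Psmd11 (8.57) and Psmd13 (8.74) were identical and Psmd12 had 8.54, 8.52 and 8.54. Only Psmd6 and Psmd14 spanned more than 0.2 units in the lid, and they differed in direction. Psmd14, the enzyme that strips ubiquitin from the substrate, had 10.22, 10.12 and 10.34 (10.23 ± 0.11, SD, n = 3), highest in replicate 3, where Psmd6 was lowest.

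**Figure D4:**
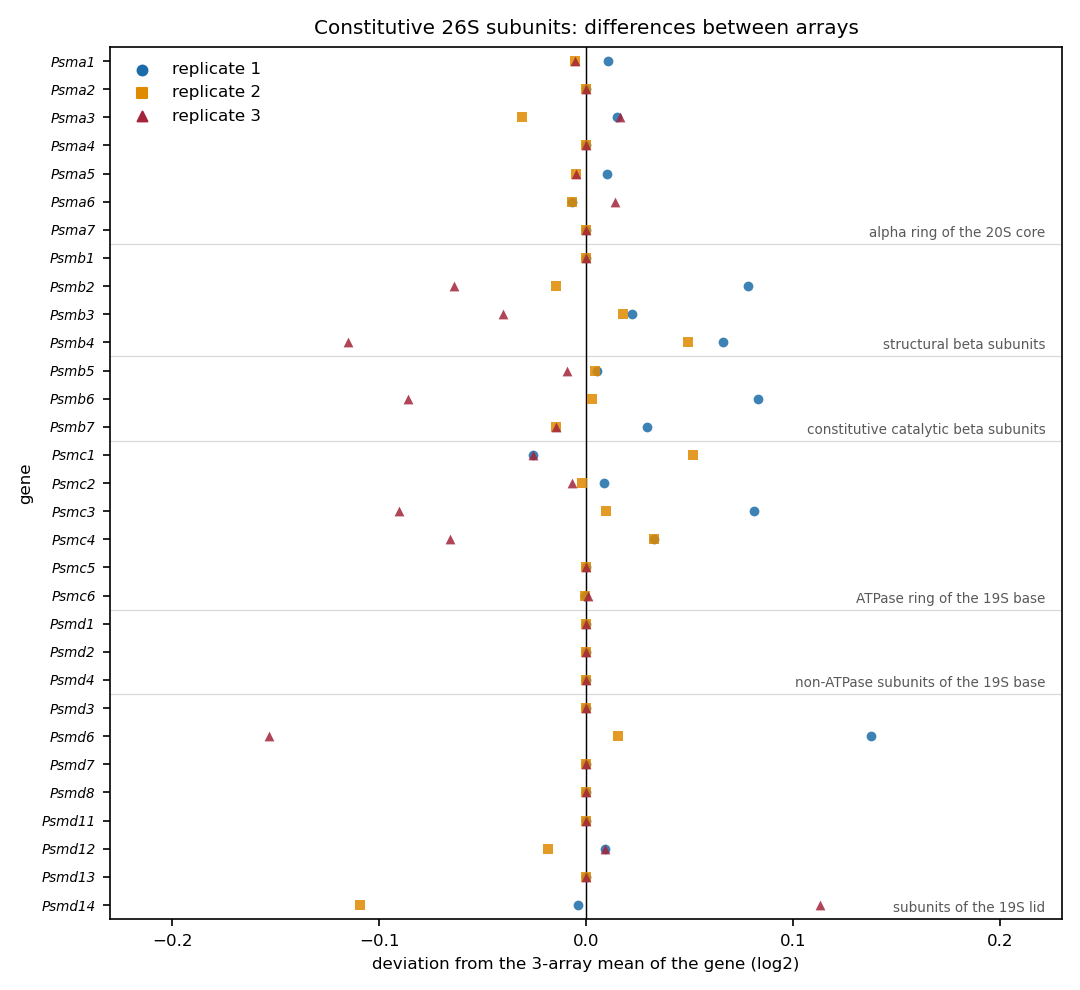
Deviation of each replicate from the 3-array mean of the gene in log2 units (horizontal axis) for the 31 constitutive 26S subunits, grouped by role. Points of 13 genes coincide at 0, the beta subunits that vary have replicate 1 on the right, and Psmd6 and Psmd14 lie apart in opposite directions in replicate 3.

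The assembly chaperones, which help build the proteasome and are not part of the finished particle, held 2 of the 4 genes of wide span. Psmg1 and Psmg2 form one heterodimer, yet Psmg2 had 7.35, 7.23 and 7.12 (7.23 ± 0.11, SD, n = 3), lowest in replicate 3, where Psmg1 was highest. Psmg3 and Psmg4 form the other, with Psmg3 identical and Psmg4 lowest in replicate 3. Of the chaperones of the 19S base, Psmd9 (6.92) and Psmd10 (8.51) were identical, and Psmd5 had 8.18, 8.19 and 8.27. Pomp, which completes the 20S core, had 9.37, 9.43 and 9.47 and was lowest in replicate 1.

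Averaged over genes, the differences between arrays were small in every subunit group. Over the 7 constitutive beta genes the mean deviation from the 3-array mean was 0.041, 0.0064 and -0.047 log2 units, a range of 0.087 or 1.06-fold, and without replicate 3 the range was 0.034. Over the 6 ATPases it was 0.016, 0.015 and -0.031, a range of 0.047 that came to 0.00068 without replicate 3. Over the 3 inducible beta genes the range was 0.051, and 0.026 without replicate 3 or without replicate 2. Over the 4 activators it was 0.066, and 0.011 without replicate 3, Psme1 being the only one lowest there. The alpha ring had 0.011 (0.0012 without replicate 2) and the 11 other 19S genes 0.023 (0.0074 without replicate 1). Over all detected genes the mean deviation was 0.0077, 0.0019 and -0.0096, a range of 0.017. Whether the groups differ from each other could not be tested.

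Several marker lists, and all detected genes, had the same order of arrays as the constitutive beta subunits, and dividing-cell markers differed much more. Over the 9 dividing-cell markers detected, the mean deviation was 0.39, 0.091 and -0.48 log2 units, all 9 were highest in replicate 1 and lowest in replicate 3, and their summed level was 11.17, 10.89 and 10.34. T cell markers (0.41, 0.056 and -0.47 over 6 genes), NK cell markers (0.45, 0.16 and -0.62 over 5) and, with smaller values, macrophage markers (0.079, 0.0073 and -0.086 over 5) had the same order of means. The part of these cells in the proteasome values was not tested. The inducible beta genes did not share this order, with 0.00011, 0.026 and -0.026.

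**Figure D5:**
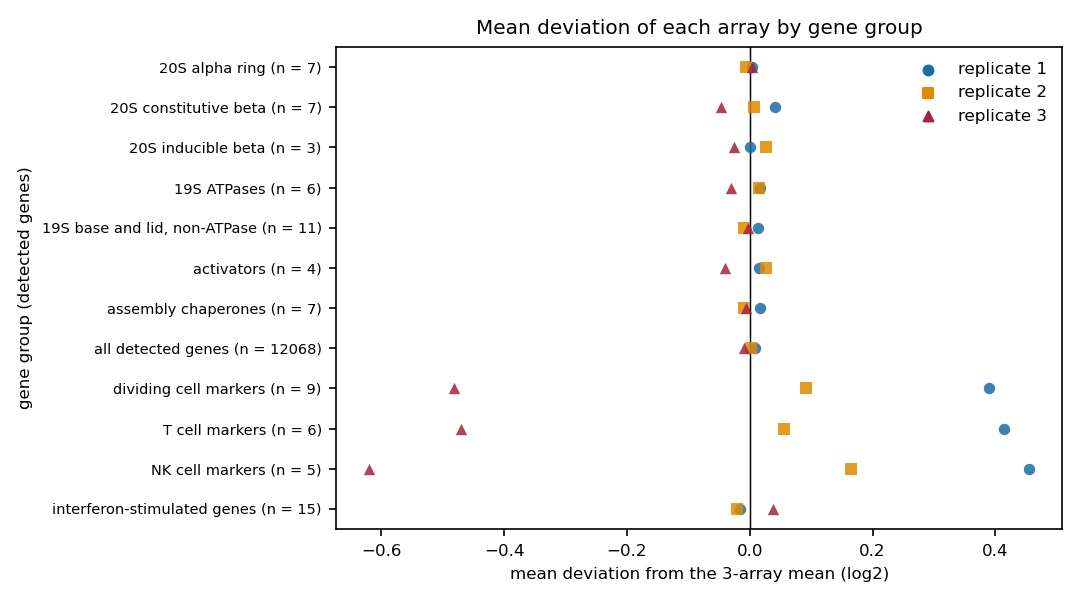
Mean deviation of each replicate from the 3-array mean in log2 units (horizontal axis) over the detected genes of each group, with all detected genes and 4 further lists for scale. The subunit groups lie within 0.05 units of 0, whereas dividing-cell, T cell and NK cell markers reach beyond 0.35 units on both sides.

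Most measured genes of the wider pathway were detected too, against 60.5% of all genes. Of all detected genes 8.49% spanned more than 0.25 units, and in lists this short a count of 0 or 1 is near that share. All 8 measured assembly and accessory factors passed, among them the deubiquitinases Usp14 (9.18, 9.14 and 9.20) and Uchl5 (8.26 on each array after rounding), the lid subunit Sem1 (9.01, 9.02 and 9.01) and the adaptor Ecpas (8.99). Of the genes that control transcription of proteasome subunits, 7 of 7 measured passed. Nfe2l1, the factor that restores proteasome levels after inhibition, had 8.51, 8.52 and 8.58, and Nfe2l2, its relative in the oxidative stress response, had 11.08, 10.98 and 10.82. Nfe2l2 was the only one of the 7 over 0.25 units. Shuttle and extraction factors passed in 8 of 8 cases, with none over 0.25 units, including Vcp, the segregase that pulls out ubiquitinated proteins (9.80, 9.80 and 9.76). Of 6 listed ubiquitin genes and activating enzymes only Uba6 (8.61) had a probe set of its own. Peptide trimming and transport genes passed in 12 of 12 cases, none over 0.25 units and 6 identical. Interferon-stimulated genes passed in 15 of 16 cases, and of the 13 not identical 6 were lowest in replicate 1 (background 24.5%) and 4 in replicate 3 (background 37.8%). Rsad2, with 8.93, 9.02 and 9.37, and Isg20, with 6.99, 6.79 and 6.72, spanned more than 0.25 units in opposite directions. Mx2 (4.89, 4.92 and 5.12) lay below background. Of 15 heat shock and chaperonin genes 15 passed, with Cct2 (10.54, 10.46 and 10.22) the only one over 0.25 units. Of the 9 not identical, 3 were lowest in replicate 3 (background 37.8%) and 3 in replicate 2 (background 9.12%). Replicate 1 was lowest for 0 (background 24.5%), and 3 were tied.

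Sequence features of the promoters were counted as a property that the symbol rule did not use. RefSeq windows of 250 bases before to 50 after the start (GRCm38.p6) were held for 40 of the 48 proteasome genes. Psma8, Psmb1, Psmb2, Psmb7, Psmc3, Psmd3, Psmd7 and Psmg2 had no entry. Letters were searched on both strands, and a match is a description, not a proven site. The ETS site CCGGAAG was present in 14 of the 40 (35.0%), against 9.93% of 27025 genes in the table. It occurred in 9 of 14 genes of the 19S regulator and 1 of 15 of the 20S core, a split chosen after the counts were seen and not tested. Of the 9, 7 are shown with the site in capitals. In these its first base lay between positions -45 and -6 from the start except in Psmc6, where it was at -100. Of the 2 not shown, Psmc2 had it at -84 and -24 and Psmd4 at -125.

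Psmc1, chr12:100110163-100110192, plus strand: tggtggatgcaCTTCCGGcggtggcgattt
Psmc6, chr14:45329713-45329742, plus strand: aggcgggccagCCGGAAGgggcggagccag
Psmd2, chr16:20651615-20651644, plus strand: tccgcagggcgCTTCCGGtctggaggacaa
Psmd6, chr14:14120972-14121001, minus strand: cagagacgcgaCCGGAAGtcagactggcgg
Psmd11, chr11:80428593-80428622, plus strand: cgagggcgggtCTTCCGGgtgtgtgtttcc
Psmd12, chr11:107479500-107479529, plus strand: tgagcgggcgaCTTCCGGtgcgagtgacga
Psmd13, chr7:140882377-140882406, plus strand: cgcccgcggtgCCGGAAGtgagcgagcact

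Genes with this site included both Psmd6, of wide span, and Psmd2, Psmd11 and Psmd13, identical on the arrays. The GC box GGGCGG was present in 23 of 40 (57.5%, all genes 38.2%) and the CCAAT box in 14 (35.0%, all genes 41.1%). The TATA box TATAAA (10.0%, all genes 15.7%) and the E-box CACGTG (10.0%, all genes 8.09%) were present in 4 each. Sites overlapped in Psma6 and Psmc2 (CCAAT box with ETS site), Psmd9 (GC box with antioxidant response element) and Psme4 (ETS site with GC box).

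The interferon-stimulated response element, searched as GAAA, any 2 bases, GAAA, is the site of interferon regulatory factors and was present in 5 of 40 promoters (12.5%, all genes 3.99%). These windows are shown because Psme1 and Psmg4, of wide span, are among the 5, with the element in capitals:

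Psme1, chr14:55578493-55578522, plus strand: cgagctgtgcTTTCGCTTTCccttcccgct
Psmg4, chr13:34162969-34162998, plus strand: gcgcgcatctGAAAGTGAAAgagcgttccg
Psmb3, chr11:97703261-97703290, plus strand: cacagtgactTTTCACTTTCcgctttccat
Psmd4, chr3:95042675-95042704, minus strand: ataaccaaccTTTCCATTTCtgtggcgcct
Psmd9, chr5:123228021-123228050, plus strand: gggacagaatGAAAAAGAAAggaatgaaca

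Of these 5 genes, Psme1, Psmg4 and Psmb3 were lowest in replicate 3, and Psmd4 and Psmd9 were identical. Of proteasome genes that were not identical 50% were lowest in replicate 3 (all genes 37.8%). Of those detected, 39.1% were identical (all genes 46.5%). A link between the element and these values was not tested. The gamma-activated site TTCNNNGAA was present in 3 promoters, those of Psmb8, Psmd2 and Psmg1 (7.50%, all genes 9.55%).

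The antioxidant response element TGACNNNGC, the letters read by Nfe2l1 and Nfe2l2, was present in 6 of 40 promoters (15.0%, all genes 13.99%). It occurred in those of the constitutive catalytic subunits Psmb5 and Psmb6, shown here with the element in capitals, and in those of Psmc6, Psmd9, Psmd12 and Psme4:

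Psmb5, chr14:54618023-54618052, minus strand: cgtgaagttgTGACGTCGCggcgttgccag
Psmb6, chr11:70525338-70525367, plus strand: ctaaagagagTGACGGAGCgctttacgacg

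Among these genes, Psmb6 spanned 0.17 units and Psmb5 0.014, while Psmd9 and Psme4 were identical on the arrays.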

How the data were processed

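Total RNA (150 ng per sample) of 3 BMDC samples was hybridised to 1 array each. The submitters' processing notes name RMA as what the authors used to make the deposited log2 values. Its version and the genome build are not given in the sources used here. The array medians were 5.91, 5.91 and 5.91, and no scanner intensities were used. The platform annotation gives 1 gene for 21789 of the 35556 probe sets, which were used. It gives several for 1621 and has no entry for 12146. The 50 members have 56 such probe sets, and each gene took the one with the highest mean. All 50 symbols matched RefSeq through the Entrez identifier. Deviations, spans and counts were computed in Python 3.11.15 with pandas 2.3.3 and numpy 2.4.6, checked on simulated data. No contrast exists, so no test was run. Promoters and positions come from RefSeq (GRCm38.p6); 14 motifs were searched and 8 are given, picked with counts known. Members and lists were chosen with earlier results of these data known. By rule, all 3 values were printed for catalytic subunits and their inducible counterparts, activators and inhibitor, and members below background or spanning over 0.25 units. Members identical on the arrays were given by 1 value. Pathway lists were given by counts and by their genes below background or over that span. Other members and list genes named with values lie outside this rule and were chosen after their values were seen. Alternatives covered the limit, the call on the mean, the probe set rule, centring, identical members, median, span and each left-out replicate.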

Additional observations from a re-analysis of the deposited data

How the results depend on the processing

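No paired analysis was possible because all 3 samples form 1 group. The count of 47 members above background stayed between 46 and 47 under all alternatives run, and the counts of identical members (18, or 17 and 20) and of members lowest in replicate 3 (14, or 15) stayed close. With the span set at 0.5 units, 0 members passed in place of 4, and without 1 replicate 0 to 4 did. The range of the mean deviation came to 0.019 for the alpha ring without identical members and to 0.022 with the mean over probe sets, in place of 0.011. For the 19S non-ATPase genes it was 0.085 without identical members and 0 as a median over members, in place of 0.023, and for the activators 0.0076 as a median, in place of 0.066. Without 1 replicate it lay between 0.0012 and 0.011 for the alpha ring, 0.034 and 0.087 for the constitutive beta subunits and 0.026 and 0.051 for the inducible ones. For the ATPases it lay between 0.00068 and 0.047, for the 19S non-ATPase genes between 0.0074 and 0.023 and for the activators between 0.011 and 0.066. The causes were not tested. Identical values and the unknown binding strength of probes limit what these arrays show.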
